A study of Mus musculus with 3 samples.

Results

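The genes described here are 33 genes of mitochondrial and peroxisomal fatty acid oxidation, read in mouse BMMCs (mast cells raised in culture from bone marrow). They were chosen by name from the pathway and not by a cut on measured values, but with earlier results of these data known. Cpt1a is not among them and is given below with the wider pathway. All 33 were found among the 31069 genes named on the array, through 42 probes on 51 spots. The cells came from 12-week-old male mice of C57BL/6 background, and every array, the control included, carried RNA of cells lacking Pafah2, an enzyme of the phospholipase A2 family that cuts oxidised fatty acids out of membrane lipids. Cells were exposed for 12 h to DMSO as vehicle, to epoxides of omega-3 fatty acids, 17,18-EpETE with 19,20-EpDPE in the ratio 2 to 3 (300 nM in total), or to GW9662 (0.5 µM), an irreversible antagonist of the lipid-sensing nuclear receptor PPAR gamma. Each condition was measured on 1 one-colour array, so no spread between cultures could be estimated and no test was possible. The comparisons address whether the expression of these genes in Pafah2-deficient mast cells differs after either compound.

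Fatty acid oxidation breaks fatty acids down in steps that each release acetyl-CoA. A fatty acid is first joined to coenzyme A, long chains then cross the inner mitochondrial membrane as carnitine esters, and a cycle of dehydrogenation, hydration, a further dehydrogenation and thiolytic cleavage follows. Peroxisomes run a related cycle on very long and branched chains, starting with an acyl-CoA oxidase in place of a dehydrogenase. Many of these genes are known targets of PPAR alpha, PPAR delta and, in fat cells, PPAR gamma.

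None of the 31 genes that could be read was 2-fold or more from vehicle on either treated array. Against vehicle, the array labelled epoxides was lowest for Hadha, the alpha subunit of the mitochondrial trifunctional protein (1.52-fold lower), and highest for Acsl3, a long-chain acyl-CoA synthetase (1.39-fold higher). With a trend in the GC content and signal of the probes taken out of each array, Hadha came to -0.28 and Acsl3 to 0.020 on the log2 scale. Acad10 (-0.34) was then lowest and Cpt1b (0.23) highest, with Acsl5 also at 0.23. Cpt1b had a dim spot, and its ratio ran from -0.44 to 0.25 over 10 alternative processings. That of Acsl5 was positive in all 8 in which it had a value (0.16 to 0.23), though some of these left it unchanged. The array labelled GW9662 was highest for Slc25a20, the carnitine-acylcarnitine translocase (log2 ratio of 0.26), Hadh, the short-chain hydroxyacyl-CoA dehydrogenase (1.18-fold higher), and Acadl, the long-chain acyl-CoA dehydrogenase (1.15-fold higher, as was Acsl3). These genes, Hadha, Cpt1b and Acsl5 were read only in a block of rows across the middle of the array. Copies of a probe disagreed more often in that block, as described below. Of 17 genes read only outside it, Hadhb was highest on the array labelled GW9662, at 0.18. All 3 genes that hand electrons from the cycle to the respiratory chain, Etfa, Etfb and Etfdh, were 1.08-fold to 1.13-fold above vehicle on the array labelled GW9662. Of the 7 peroxisomal genes, 6 read below vehicle on each treated array, with differences of at most 1.14-fold by the brightest probe. Of all genes, 38.9% on the array labelled epoxides and 42.2% on that labelled GW9662 read above vehicle and the others below. With quantile normalization 3 and 4 of the 7 peroxisomal genes read below.

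A level is given throughout as the log2 of the background-subtracted spot intensity minus the log2 of the 75th percentile of that array, and a log2 ratio is the difference of 2 such levels. A gene with several probes was read by its brightest probe, and a level shows how bright that probe was, so levels of different genes are not set against each other. Levels are listed in the order vehicle, labelled epoxides, labelled GW9662, and pairs of log2 ratios give the array labelled epoxides first and that labelled GW9662 second, each against vehicle. Copies of the same probe gave the spot error: the SD of a log2 ratio among copies had a median of 0.043 for epoxides over vehicle and 0.037 for GW9662 over vehicle. For probes at or above the median level of -0.13 these SDs were 0.037 and 0.031, and 0 of 1297 and 0 of 1295 readings lay 1.2-fold (0.26 on the log2 scale) from the median of their probe. For dimmer probes the SDs were 0.082 and 0.080, and 6.27% and 5.15% of readings lay that far off. A difference of 1.2-fold was therefore used as a mark, which lies beyond spot error for the brighter probes but not always for the dimmer. Of the 31 readable genes 10 have a mean level below -0.13, Hadha, Acsl3 and Slc25a20 among them. The mark says nothing of the spread between cultures, labellings or hybridisations.

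Several facts of the series bear on every value below. The deposited value table carries the 2 treated arrays under each other's names, while the scanner files were attached the other way round, and nothing in the labels decides between them. The arrays are therefore called the array labelled epoxides and the array labelled GW9662, after the scanner files, and each compound is only as sure as that label. A block of rows across the middle of the array, ending at row 400 of 532 and called the middle rows below, holds 41.9% of the spots. Copies of a probe disagreed by 1.2-fold more often there (3.70% of readings for epoxides over vehicle) than elsewhere (1.54%). For GW9662 over vehicle it was 4.39% of readings there and 0.32% elsewhere. In these rows alone 13 of the 33 genes were read. Spike-in RNAs above the lowest detected level, 7 of 10, lay between -0.37 and 0.05 for the array labelled epoxides and between -0.17 and -0.10 for that labelled GW9662, both against vehicle. All 10 mast cell markers were above background on every array, while 0 of 3 eosinophil and 0 of 3 adipocyte markers were. Above background on every array were 3 of 7 neutrophil, 4 of 6 macrophage, 2 of 2 basophil and 1 of 3 lymphocyte markers. Summed over each list, the mast cell markers were at 9.33 for vehicle, 8.95 for the array labelled epoxides and 9.17 for that labelled GW9662, and the neutrophil markers at 0.94, 0.41 and 0.98. The macrophage markers were at 0.76, 0.77 and 0.77, the basophil markers at 1.75, 1.76 and 1.62, and the lymphocyte markers at -0.26, -1.30 and -0.058. The 1 lymphocyte marker above background throughout, the T cell receptor subunit Cd3e, had -0.31, -1.40 and -0.61, a ratio of -1.09 for the array labelled epoxides. The part of other cell types in the ratios was not tested, and in bulk RNA fewer cells of a type and less RNA per cell cannot be told apart.

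**Figure D1:**
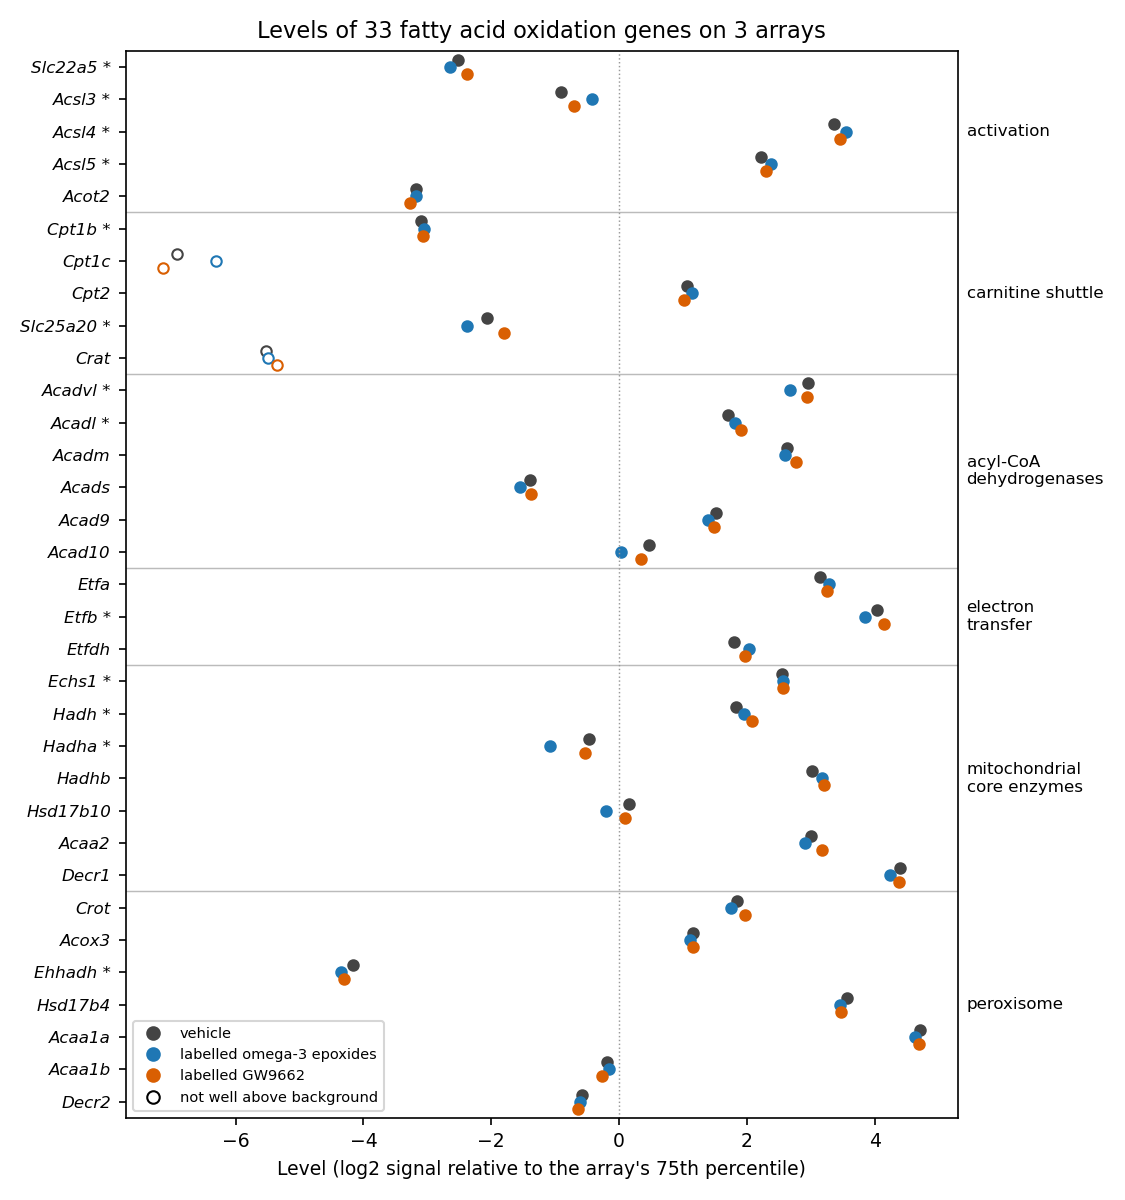
Level of each of the 33 fatty acid oxidation genes on each of the 3 arrays (log2 spot intensity over the array's 75th percentile), grouped by role, 1 point per array and no error bars because each condition has 1 array. Open points were not well above background, an asterisk marks genes read only in the middle rows, and the 3 points of every gene lie within 1 unit of each other.

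Of the 5 genes for uptake and activation, 4 were read in the middle rows. Slc22a5, the sodium-dependent carnitine transporter of the plasma membrane, was at -2.51 on the vehicle array, -2.64 on the one labelled epoxides and -2.38 on the one labelled GW9662. It lay between the treated arrays with vehicle, and its log2 ratios were -0.13 and 0.13. Acsl3, an acyl-CoA synthetase of the endoplasmic reticulum and lipid droplets, had -0.90, -0.42 and -0.70, above vehicle on both treated arrays, with ratios of 0.48 and 0.20. Acsl4, a synthetase that prefers arachidonate and other polyunsaturated fatty acids, had 3.37, 3.55 and 3.46, with ratios of 0.18 and 0.09. Acsl5, a synthetase of the mitochondrial outer membrane and endoplasmic reticulum, had 2.22, 2.37 and 2.30, with ratios of 0.16 and 0.08. The 3 synthetases thus shared an order, with vehicle lowest, the array labelled GW9662 between and the array labelled epoxides highest, and only Acsl3 passed 1.2-fold. With the trend removed Acsl3 left that order, as its ratio of the array labelled epoxides to that labelled GW9662 was then -0.07. Acot2, a thioesterase that splits acyl-CoA in the mitochondrial matrix and the 1 gene of this role read outside those rows, had -3.18, -3.18 and -3.27, which differ by no more than the spot error of a dim probe allows (ratios of 0.0014 and -0.09).

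The carnitine shuttle was read through 3 of its 5 genes. Cpt1c, a carnitine palmitoyltransferase mainly of the brain, and Crat, the carnitine acetyltransferase, were not well above background on any array, and no ratio is given for them. Cpt1b, the muscle form of the outer-membrane palmitoyltransferase, was at -3.10, -3.05 and -3.07. Its ratios of 0.05 and 0.03 lie within spot error, and its spot is in the middle rows. With the trend removed the first was 0.23, and over 10 alternative processings it ran from -0.44 to 0.25. Cpt2, the inner-membrane transferase that turns acylcarnitine back into acyl-CoA, had 1.06, 1.15 and 1.02, with ratios of 0.09 and -0.04. Slc25a20, the translocase that carries acylcarnitine inward in exchange for carnitine, had -2.06, -2.38 and -1.80. It was the shuttle gene whose 3 arrays lay farthest apart, 1.24-fold below vehicle on the array labelled epoxides (ratio of -0.31) and above it on that labelled GW9662 (0.26). Its spot is dim and lies in the middle rows, and the gene has no second probe.

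The 6 acyl-CoA dehydrogenases take the first step of the mitochondrial cycle, each on a range of chain lengths. Acadvl, for very long chains, was at 2.95 on the vehicle array, 2.68 on the one labelled epoxides and 2.94 on the one labelled GW9662. It was low on the first treated array alone, with ratios of -0.27 and -0.012. Acadl, for long chains, had 1.71, 1.82 and 1.91, above vehicle on both treated arrays, with ratios of 0.11 (-0.046 with the trend removed) and 0.20; both genes were read in the middle rows. Acadm, for medium chains, had 2.63, 2.60 and 2.76, with ratios of -0.028 and 0.13. Acads, for short chains, had -1.39, -1.55 and -1.39, with ratios of -0.16 and 0.0065. With the trend removed its ratios were 0.19 and 0.10. On the array labelled GW9662, Acadl and Acadm thus read above vehicle. Acadvl and Acads read almost as they did with vehicle there, for Acads only without removal of the trend. Acad9, better known as an assembly factor of respiratory complex I, had 1.52, 1.39 and 1.48, with ratios of -0.13 and -0.04. Acad10, a less studied relative with an added kinase-like domain, had 0.47, 0.024 and 0.35, the lowest ratios of this role on both treated arrays at -0.45 (1.36-fold lower) and -0.12. For Acadm and Acad9 the files place the probe on a chromosome other than the one RefSeq lists for the gene, and whether these 2 spots read the gene or a copy of it was not tested. The other 30 genes whose probes have coordinates lay on the chromosome listed, and Acsl5 had no coordinates.

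Electrons from these dehydrogenases pass to the electron transfer flavoprotein and on to ubiquinone. Etfa, its alpha subunit, was at 3.14 on the vehicle array, 3.28 on the one labelled epoxides and 3.26 on the one labelled GW9662, with ratios of 0.14 and 0.12. Etfb, the beta subunit, had 4.03, 3.85 and 4.14, with ratios of -0.18 and 0.11. The 2 subunits, which form 1 dimer, thus read on opposite sides of vehicle with the array labelled epoxides but on the same side on that labelled GW9662. This contrast depended on the processing: with the trend removed the ratios of Etfa and Etfb on the array labelled epoxides were both positive (0.064 and 0.15), and with the mean of detected probes both negative (-0.044 and -0.30). Etfdh, the ubiquinone oxidoreductase that accepts their electrons, had 1.80, 2.04 and 1.97, above vehicle on both treated arrays with ratios of 0.24 and 0.17. The 3 ratios for GW9662 were positive in the scanner files under each of the 10 other processings tried, not all of which could change them. With the value table, in which the treated arrays trade places, 2 of 3 were positive. Etfb was read in the middle rows.

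Next come the enzymes of the later mitochondrial steps. Echs1, the short-chain enoyl-CoA hydratase, was at 2.54 on the vehicle array, 2.57 on the one labelled epoxides and 2.56 on the one labelled GW9662. Its 3 arrays could not be told apart beyond spot error. Hadh, which oxidises short and medium hydroxyacyl-CoA, had 1.83, 1.95 and 2.08, with ratios of 0.12 and 0.24. Hadha, which carries the long-chain hydratase and dehydrogenase activities of the trifunctional protein, had -0.47, -1.07 and -0.54. It was low on the array labelled epoxides alone, with a ratio of -0.60 there and of -0.07 on the other; Echs1, Hadh and Hadha were read in the middle rows. Hadhb, the thiolase subunit of the same complex, had 3.02, 3.18 and 3.21, above vehicle on both treated arrays with ratios of 0.15 and 0.18. Both subunits are encoded side by side on chromosome 5, and on the array labelled epoxides their ratios differed in sign. Of the 33 probes used, that of Hadhb alone shared a run of 20 bases with a probe of another name. Whether this bears on its signal was not tested. Hsd17b10, a hydroxyacyl-CoA dehydrogenase that is also a part of mitochondrial RNase P, had 0.16, -0.20 and 0.098, with ratios of -0.36 (1.28-fold lower) and -0.06. Acaa2, the thiolase of shorter chains, had 3.01, 2.91 and 3.18, with ratios of -0.098 and 0.17. Decr1, the dienoyl-CoA reductase needed for polyunsaturated chains, had 4.39, 4.24 and 4.38, with ratios of -0.16 and -0.0072. Neither reached 1.2-fold, and the first was 0.025 with the trend removed and 0.024 with the mean of detected probes.

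None of the 7 peroxisomal genes was farther than 1.14-fold from vehicle by its brightest probe. With the mean of detected probes Acox3 had ratios of -0.41 and -0.25, the first past 1.2-fold, and its further probes are given below. Crot, which makes the carnitine esters of medium-chain products that leave the peroxisome, was at 1.84 on the vehicle array, 1.75 on the one labelled epoxides and 1.97 on the one labelled GW9662, with ratios of -0.09 and 0.13. It was the 1 peroxisomal gene above vehicle on the array labelled GW9662. Acox3, the oxidase for branched chains, had 1.15, 1.12 and 1.15, with ratios of -0.035 and -0.00042. Ehhadh, the peroxisomal bifunctional enzyme, had -4.16, -4.35 and -4.30, dim on every array and read in the middle rows, with ratios of -0.19 and -0.14. Hsd17b4, the D-bifunctional enzyme, had 3.57, 3.46 and 3.48, below vehicle on both treated arrays by about the same amount (ratios of -0.11 and -0.09). The thiolases Acaa1a and Acaa1b are close copies of each other, though their probes shared no run of 20 bases. Acaa1a had 4.72, 4.64 and 4.69, with ratios of -0.08 and -0.02, or 0.19 and 0.044 with the trend removed. Acaa1b had -0.19, -0.16 and -0.27, with ratios of 0.028 and -0.08. Decr2, the peroxisomal dienoyl-CoA reductase, had -0.58, -0.61 and -0.64, with ratios of -0.03 and -0.07. The count of 6 of 7 below vehicle depended on the scaling: with quantile normalization it was 3 of 7 for the array labelled epoxides and 4 of 7 for that labelled GW9662.

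**Figure D2:**
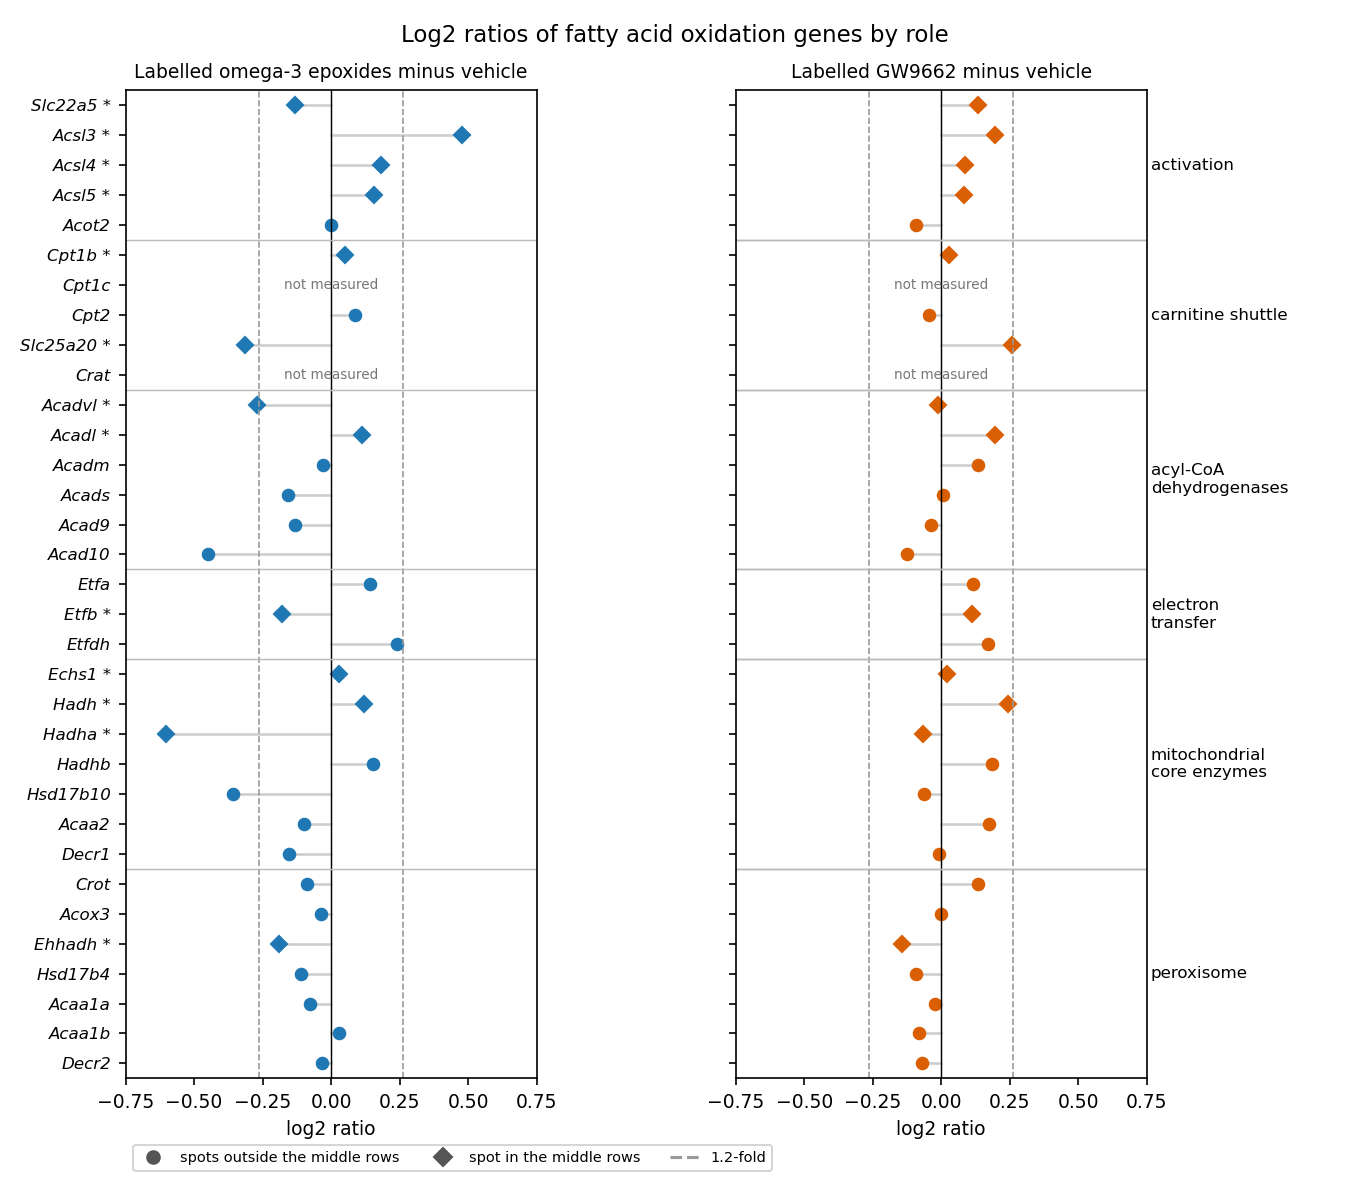
Log2 ratio to vehicle of the fatty acid oxidation genes by role, for the array labelled epoxides (left) and that labelled GW9662 (right), 1 array pair each; diamonds and asterisks mark genes read only in the middle rows, and dashed lines mark 1.2-fold. On the left 1 gene lies past the upper line and 5 past the lower, and on the right none lies past either.

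Counted over the 31 readable genes, 13 had a positive ratio on the array labelled epoxides, beside 38.9% of all 15812 genes measured there, and the median was -0.035 beside -0.073 for all genes. Acsl3 was the 1 gene at least 1.2-fold higher, a mark that 7.74% of all genes passed. At least 1.2-fold lower were 5 genes, Hadha, Acad10, Hsd17b10, Slc25a20 and Acadvl, and 25.6% of all genes lay that far below vehicle. At 2-fold the count was 0 of 31, where 0.215% of all genes were higher and 2.07% lower. The share of fatty acid oxidation genes past either mark thus did not stand above that of the array as a whole. The sign of the median depended on the processing: with quantile normalization it was 0.024, with cyclic loess 0.028 and with a trend in GC content and signal taken out of each array 0.020. The split moved likewise: with quantile normalization 54.8% of these genes and 51.3% of all genes had a positive ratio.

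On the array labelled GW9662, 17 of 31 genes had a positive ratio, beside 42.2% of 15795 genes, with a median of 0.020 beside -0.022. None was 1.2-fold from vehicle, where 2.88% of all genes were higher and 6.2% lower, and none was 2-fold away, where 0.355% were higher and 0.469% lower. These shares of all genes came largely from the middle rows. At 2-fold it was 127 of 6705 genes read there and 3 of 8886 read outside. At 1.2-fold 329 were higher and 552 lower in those rows, and 124 and 423 outside. Among the 31 genes the count at 1.2-fold rose to 1 in 3 alternatives. Slc25a20 was past the mark with quantile normalization (0.28) and with the trend removed (0.30), and Cpt2 with the mean of detected probes (-0.27). The split differed between the parts of the array. Of 13 genes read in the middle rows, 10 were positive (median of 0.086, with 43.5% of all genes there positive), while of 17 read outside, 6 were (median of -0.024, with 40.9% positive). By compartment, 12 of 19 mitochondrial and 1 of 7 peroxisomal genes were positive, with medians of 0.028 and -0.07; outside those rows the counts were 5 of 10 and 1 of 6, and with quantile normalization 3 of 7 peroxisomal genes were positive. With quantile normalization 67.7% of the genes were positive and with the trend removed 71.0%, beside 48.7% and 48.9% of all genes. This excess was not seen without the middle rows, where 8 of 20 genes were positive, beside 41.6% of all genes. With the trend removed as well it was 10 of 20, beside 49.6%.

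The base composition of the probes moved with the ratios on the array labelled epoxides. The first 30 bases of the 60-base probes of Hadha and Acad10, the 2 genes lowest there, of Etfdh, the gene next to the highest, and of Hadhb, the partner of Hadha, are shown with G and C in capitals.
Hadha: GGaaGCaGGaaaaaGaCCaaGGCtaGCCtt
Acad10: CttCaGaGaCCtGCCtGCCtCtGCtttCCa
Hadhb: GaatCGtCtttGtaaCatttGCaGataCtC
Etfdh: GtatGCCaaaCtaaCttCCtGtatGtttaG
Whole probes held 33 G or C of 60 bases for Hadha (chr5:30446215-30446274, minus strand, mm9 as the files give it), 27 for Acad10 (chr5:122071036-122071095, minus), 21 for Hadhb (chr5:30510925-30510984, plus) and 21 for Etfdh (chr3:79407806-79407865, minus). The 2 lowest genes thus had probes of 55% and 45% GC and the 2 highest, Acsl3 and Etfdh, of 25% and 35%. Across the 31 genes Pearson's r between probe GC content and log2 ratio was -0.73, and across all 15812 genes it was -0.48; the genes share 1 pair of arrays, so these values are descriptions. Outside the middle rows it was -0.57 over 17 genes and -0.56 over all 8892 genes read there. For GW9662 over vehicle it was -0.23 over 31 genes and -0.21 over all genes.

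Over all genes the median ratio of the array labelled epoxides to vehicle was 0.34 for probes of 25% to under 30% GC, 0.087 from 35% to under 40%, -0.17 from 45% to under 50% and -0.34 from 55% to under 60%. The ratio of Acsl3 (25% GC) thus lay just above the upper quartile of its band, 0.46, while that of Hadha (55%) was below the lower quartile of its band, -0.54, and that of Acad10 (45%) below its own, -0.35. With a quadratic trend in GC content and signal removed from each array, Acsl3 came to 0.020, Acadvl to -0.046 and Slc25a20 to -0.12. Acad10 at -0.34 and Hadha at -0.28 stayed past 1.2-fold, and Hsd17b10 came to -0.25, just short of it. For GW9662 over vehicle the same step left Slc25a20 at 0.30, Hadh at 0.22 and Hadhb at 0.15.

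**Figure D3:**
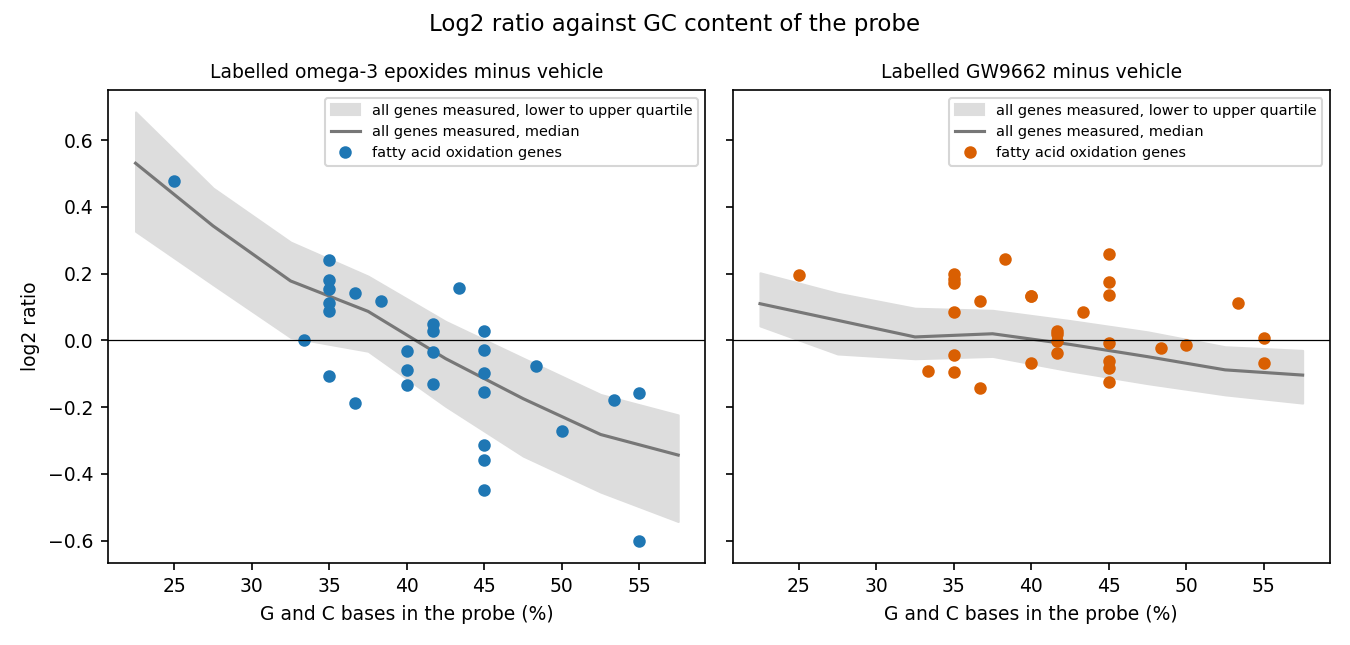
Log2 ratio to vehicle against the GC content of the probe, for the array labelled epoxides (left) and that labelled GW9662 (right); points are the 31 readable fatty acid oxidation genes, the line is the median of all genes measured in bands of 5% GC, and the shaded area runs from the lower to the upper quartile. On the left both points and line fall as GC content rises (r of -0.73 for the points), and on the right the line falls less (r of -0.23 for the points).

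Where a gene had more than 1 detected probe, the probes often differed. The 3 probes of Acox3 lie within its locus on chromosome 5, and the first 30 bases of each are shown with G and C in capitals to let their composition be compared.
Acox3, probe used: aaCCaGaCttaGatGGGtGatatCaCatGa
Acox3, probe 2: aGatGtCatCGCCCCCtCCGaCtttGttCt
Acox3, probe 3: GCtCCCatCaGGCttGCttttatGGCaCtt
The probe used (chr5:35956215-35956274, 25 G or C of 60 bases) had ratios of -0.035 for the array labelled epoxides and -0.00042 for that labelled GW9662. Probe 2 (chr5:35952411-35952470, 31 G or C) had -0.88 and -0.28, and probe 3 (chr5:35954432-35954491, 21 G or C) had -0.31 and -0.46. Probes 2 and 3 lay more than 1.2-fold below vehicle on both treated arrays and the probe used did not, and all 3 were read outside the middle rows. A 2-fold difference was not reached by any of them.

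For the other genes with several detected probes, the second probe of Cpt2 had ratios of -0.92 and -0.50 at a dim vehicle level of -3.88 in the middle rows. That of Cpt1b had -0.44 and -0.18, also dim at -4.16 with vehicle. The second probe of Decr1 (35% GC against 45% for the probe used) had 0.20 and 0.14, opposite in sign to the brighter probe. That of Etfa had -0.23 and -0.06, opposite in sign likewise, and the files place it on another chromosome than the probe used. The other probes of Etfb had -0.30 and 0.07, and -0.41 and -0.0047. The negative sign of Etfb on the array labelled epoxides was shared by its 3 probes, but with the trend removed the probe used came to 0.15. Between probes the sign differed for Cpt2 on the array labelled epoxides, for Etfb on that labelled GW9662, and for Cpt1b, Decr1 and Etfa on both.

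Acaa2 was the 1 gene of the 33 whose probe was printed more than once, on 10 spots of which 3 lie in the middle rows. Its log2 ratio to vehicle was -0.098 ± 0.032 (SD, n = 10 spots) on the array labelled epoxides and 0.17 ± 0.031 on that labelled GW9662, where single spots ran from 0.13 to 0.22. Every spot lay below vehicle on the first and above it on the second. Over the 7 spots outside those rows the means were -0.093 and 0.19. The difference of 1.13-fold on the array labelled GW9662 was thus larger than the spread between spots of this pair of arrays, which is not a spread between cultures. The negative value did not hold with the GC and signal trend removed, where it was 0.028, while the positive one was 0.20 there.

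**Figure D4:**
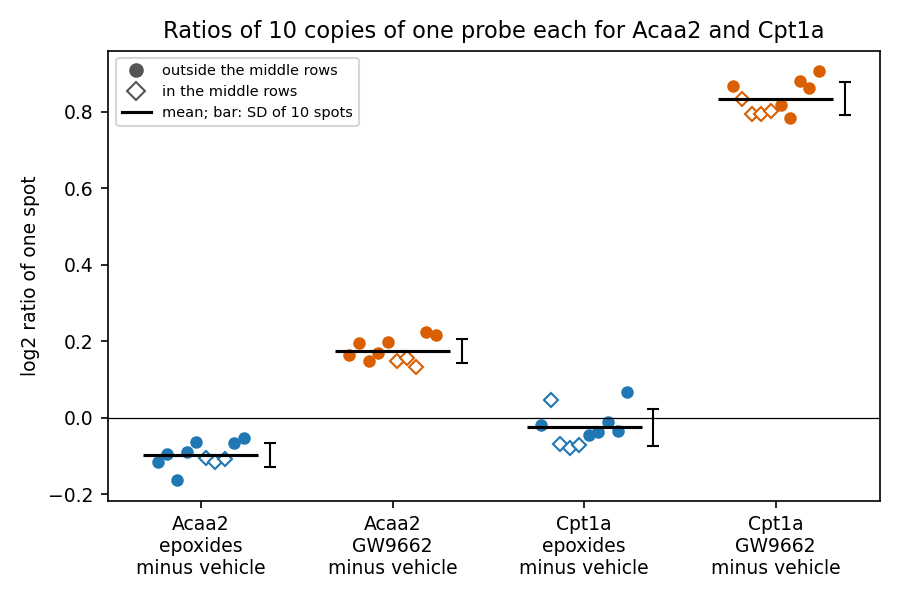
Log2 ratio to vehicle of each of the 10 spots of the Acaa2 probe and, for scale, of the Cpt1a probe; lines are means and bars the SD over 10 spots of 1 pair of arrays, and open diamonds lie in the middle rows. The Acaa2 spots run from -0.16 to -0.053 on the array labelled epoxides and from 0.13 to 0.22 on that labelled GW9662, and the Cpt1a spots from 0.78 to 0.91 on the latter.

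The wider pathway was read through 31 further genes of fatty acid uptake, oxidation and its control, 23 of them measured. On the array labelled epoxides 0 of 23 were at least 1.2-fold higher and 6 lower, where 7.74% of all genes were higher and 25.6% lower. On that labelled GW9662 1 was higher and 0 lower, where 2.88% and 6.2% of all genes were. The 1 higher gene was Cpt1a, the liver form of the palmitoyltransferase that controls the entry of long chains into mitochondria. It was at 1.49 on the vehicle array, 1.47 on the one labelled epoxides and 2.32 on the one labelled GW9662, so that it was high on the last alone, with ratios of -0.026 ± 0.048 and 0.83 ± 0.043 (SD, n = 10 spots). The highest ratio there among the 31 readable genes described above was 0.26. Acsl1, the main synthetase of fat and muscle cells, had 0.28, 0.46 and 0.28. It was above vehicle on the array labelled epoxides (ratio of 0.18) and level with it on that labelled GW9662 (-0.0056), and its spot lies in the middle rows. A second, dim probe of Acsl1 had ratios of 0.11 and 0.38. Pdk4, a kinase that shuts off pyruvate oxidation when fat is burned, was not well above background on any array. Lowest on the array labelled epoxides were Slc27a1 and Slc27a4, fatty acid transport proteins, at -0.57 and -0.51. On the array labelled GW9662 Slc27a1 had -0.26 and Acot8, a peroxisomal thioesterase, -0.19.

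Of 9 regulators 8 were measured, of which 0 were at least 1.2-fold higher and 3 lower on the array labelled epoxides, and none passed that mark on the array labelled GW9662. Of all genes 7.74% were higher and 25.6% lower by that much on the first, and 2.88% and 6.2% on the second. Ppara, the nuclear receptor best known for driving these genes in liver, was at -1.65 on the vehicle array, -2.14 on the one labelled epoxides and -1.74 on the one labelled GW9662 (ratios of -0.49 and -0.09), in the middle rows. Pparg, the receptor that GW9662 binds, had -3.75, -4.39 and -3.94, with ratios of -0.64 and -0.19. Rxra, the partner of both receptors in DNA binding, had -4.22, -4.91 and -4.34, with ratios of -0.69 and -0.12. All 3 were low on the array labelled epoxides. Pparg and Rxra were dim, and outside the middle rows the dimmest of 10 groups of genes by signal had a median of -0.38 on that array and -0.13 on the other.

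The treated arrays were also set against each other, a comparison that reuses both of them and adds no independent sample. For epoxides minus GW9662, 11 of 31 genes had a positive ratio, beside 38.9% of 16044 genes, with a median of -0.052 beside -0.056. None was 2-fold apart, where 0.206% of all genes were higher and 0.954% lower. Acsl3 was at least 1.2-fold higher (0.28), a mark passed by 5.33% of all genes. At least 1.2-fold lower were 7 genes, and 18.9% of all genes were. They were Slc25a20 (-0.57), Hadha (-0.53), Acad10 (-0.32), Hsd17b10 (-0.29), Etfb (-0.29), Acaa2 (-0.27) and Slc22a5 (-0.27). Acaa2 had -0.27 ± 0.021 over its 10 spots, with all of them between -0.31 and -0.24. With the GC and signal trend removed, Slc25a20 at -0.42 and Hadha at -0.30 were still past 1.2-fold, Acad10 came to -0.24, Acaa2 to -0.18 and Etfb to -0.053, and Acsl3 changed sign to -0.07.

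Since PPAR gamma and its relatives bind a direct repeat of AGGTCA with 1 base between, the promoters of the 33 genes were searched for these letters on both strands, in windows from 250 bases before to 50 after the gene start (RefSeq, GRCm38.p6). A window was at hand for 27 genes. The full repeat AGGTCANAGGTCA was in 0 of 27 and in 0.0481% of 27025 promoters of all genes. The single element AGGTCA was in 4 of 27, those of Acadm, Cpt1c, Echs1 and Acadvl, which is 14.8% beside 18.1% of all promoters. The extended element TCAAGGTCA, which contains the single one and is bound by estrogen-related receptors, was in 0 of 27 and in 0.466% of all promoters. A match describes letters in this window and is no binding site shown, and the absence of one says only that these letters were not in it.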

How the data were processed

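Total RNA (200 ng per labelling, per the labels) was hybridised to 3 one-colour arrays with 60-base probes whose scans went through Agilent Feature Extraction 11.5.1.1 (per the submitters' processing notes). Per the file headers, gProcessedSignal, gMeanSignal and gBGMedianSignal are intensity values on a linear scale, the first background-subtracted. The value table deposited by the authors holds a linear ratio, the processed signal over a constant of the array near its 75th percentile (quotients constant within 0.001). Column medians were 0.0524, 0.0500 and 0.0413 for vehicle, epoxides and GW9662, and each treated column fits the scanner file of the other treated sample.

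From 43020 non-control spots per array, of which 52.3%, 54.6% and 53.3% were well above background and 0 saturated, spots marked as outliers (230, 221 and 251) were left out. The log2 of the array's 75th percentile was subtracted from log2 signals, copies of a probe averaged, and genes read by the brightest probe and counted as measured when well above background on both arrays. Of 39429 probes 28330 were named through the RefSeq table by accession and the others by the name in the file; mm9 probe positions come from the files. A difference was called at 2-fold, and a smaller one at 1.2-fold. The procedure was tested on simulated data with known changes and even spot noise. These held no trend in GC content between arrays and no added error in the middle rows, so the test does not bear on either. All 33 genes are named, with further detected probes where they differ in sign or by 1.2-fold; of the wider pathway, Cpt1a, Acsl1, Pdk4, Ppara and up to 4 genes farthest from 0 in each comparison with vehicle (1 further gene of this rule and 1 probe sequence are not reported here). The genes, lists and alternatives were chosen with earlier results of these data known, among them the middle rows and the trend in GC content. Python 3.11.15, pandas 2.3.3, R 4.3.3 and limma 3.58.1 were used. The number of arrays limits the precision.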

Additional observations from a re-analysis of the deposited data

How the results depend on the processing

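Of 11 alternatives, 10 used the scanner files. Not all of these could change a sign. Leaving out the filter on dim probes and keeping outlier spots left the ratios of the readable genes as they were. Scaling on probes above background shifted every gene of a comparison by the same amount. The mean of detected probes could change only the 7 genes with several probes. Part of the agreement below was thus fixed in advance. In those 10, 17 of 31 genes kept 1 sign for epoxides minus vehicle, 25 for GW9662 minus vehicle and 21 for epoxides minus GW9662, as did 6 of the 6 genes past 1.2-fold in the first and 7 of 8 in the last comparison. With the GC and signal trend removed, though, 2 of those 6 (Acad10 and Hadha) and 2 of those 8 (Slc25a20 and Hadha) stayed past 1.2-fold. Over the 10 alternatives 0 to 2 genes were 1.2-fold higher and 1 to 8 lower for epoxides minus vehicle. The median for epoxides minus vehicle was 0.024 with quantile normalization, 0.028 with cyclic loess, -0.088 averaging the probes of a gene, -0.082 without the middle rows, 0.020 after removal of the GC and signal trend and 0.0085 with both changes. For epoxides minus GW9662 it was -0.10 with normexp and -0.094 with the mean of probes. For GW9662 minus vehicle it was -0.016 without the middle rows. With the value table, where the treated arrays trade places, medians were 0.020, -0.035 and 0.052. There 20 of 31 genes were positive for epoxides minus GW9662, beside 61.1% of all genes. Without the middle rows only 20 genes were measured. Of these 6, 8 and 6 were positive in the 3 comparisons, beside 40.1%, 41.6% and 39.6% of all genes. With the trend removed as well, 10 were for GW9662 minus vehicle and 7 for epoxides minus GW9662, beside 49.6% and 50.9% of all genes. Genes read only in those rows have no value there. Apart from the value table and the loss of genes, the cause of these moves was not tested. No paired analysis was possible because each condition had 1 array, and no array could be left out. Dim spots limit the 10 genes with a mean level below -0.13: Hadha, Acsl3, Acads, Decr2, Acaa1b, Ehhadh, Acot2, Cpt1b, Slc22a5 and Slc25a20.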
